A study of Homo sapiens with 8 samples.

Results

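The metallothioneins and a small set of zinc-handling genes were followed in HepG2 cells, a human hepatocellular carcinoma line, after transfection of a miR-552-3p mimic and of an siRNA to importin8. The members were 10 genes given by symbol: the metallothioneins MT1E, MT1F, MT1G, MT1M, MT1X and MT2A, the transcription factor MTF1, the zinc transporter genes SLC30A1 and SLC39A10, and the related transporter gene SLC30A10. All 10 were found among the 26716 genes of the table, and all 10 passed the filter on low counts, MT1M through NC alone. The study asked how the mimic changes transcripts of these cells and whether lowering importin8, a nuclear import receptor, alters that response. Every group received 1 nM of mimic or negative control together with 30 nM of siRNA or negative control, and was lysed after 72 h. NC carried both controls, miR-552-3p carried the mimic with the control siRNA, si-importin8-NC carried the importin8 siRNA with the control mimic, and si-importin8-miR-552-3p carried both active agents, each with 2 libraries of poly(A) RNA. The table abbreviates its column names: NC51 and NC52 were taken for the 2 miR-552-3p libraries, and SI51 and SI52 for those of si-importin8-miR-552-3p. The labels do not say that the 2 libraries of a group came from separate cultures, so the tests measure the spread between libraries, which may be technical.

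Metallothioneins are small cysteine-rich proteins that bind zinc, copper and cadmium and buffer the free zinc of the cell, and the liver makes much of them. Their genes are switched on by MTF1, a zinc-sensing transcription factor that binds metal response elements in their promoters, and several also respond to glucocorticoids and oxidants. MTF1 also drives SLC30A1, the zinc exporter of the plasma membrane, so that raised cytosolic zinc normally leads to both storage and export. SLC39A10 carries zinc into the cell, and SLC30A10, although named with the zinc exporters, is best known for exporting manganese.

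The mimic and 3 member promoters are shown because the first defines the treatment and the others hold the element through which MTF1 acts. The mature miRNA is given 5′ to 3′ from RefSeq on GRCh38.p14 (chr1:34669614-34669634, minus strand), with its seed, bases 2 to 8, in capitals.
hsa-miR-552-3p: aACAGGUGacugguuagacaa
The complement of that seed, CACCTGT, was searched in the longest annotated 3′ UTR of each gene and was found in 0 of the 10 members, against 3283 of 19133 genes (17.2%). The members' annotated 3′ UTRs ran from 144 bases in MT1M to 5569 bases in MTF1, where the median over all those genes was 1104 bases, and that of SLC30A10 was annotated with only 295 bases. The core of the metal response element was searched as TGCACNC and TGCGCNC on both strands of RefSeq promoter windows of 300 bases, 250 before to 50 after a gene start. Windows were held for 6 of the 10 members. Those of MT2A (chr16:56608334-56608633, plus strand), MT1X (chr16:56682220-56682519, plus strand) and SLC30A1 (chr1:211579112-211579411, minus strand) follow in the direction of transcription, with every core match in capitals.
MT2A: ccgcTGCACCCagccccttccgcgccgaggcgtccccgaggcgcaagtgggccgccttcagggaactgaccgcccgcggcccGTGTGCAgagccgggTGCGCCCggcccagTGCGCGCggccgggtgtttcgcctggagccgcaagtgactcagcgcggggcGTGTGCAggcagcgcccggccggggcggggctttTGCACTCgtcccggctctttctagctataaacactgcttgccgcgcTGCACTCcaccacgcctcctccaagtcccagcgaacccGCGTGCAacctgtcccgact
MT1X: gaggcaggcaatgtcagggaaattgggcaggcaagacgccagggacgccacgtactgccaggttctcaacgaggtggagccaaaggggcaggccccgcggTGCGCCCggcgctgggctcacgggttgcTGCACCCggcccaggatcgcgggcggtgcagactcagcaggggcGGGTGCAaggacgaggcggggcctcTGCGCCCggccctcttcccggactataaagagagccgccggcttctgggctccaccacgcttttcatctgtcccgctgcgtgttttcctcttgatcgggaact
SLC30A1: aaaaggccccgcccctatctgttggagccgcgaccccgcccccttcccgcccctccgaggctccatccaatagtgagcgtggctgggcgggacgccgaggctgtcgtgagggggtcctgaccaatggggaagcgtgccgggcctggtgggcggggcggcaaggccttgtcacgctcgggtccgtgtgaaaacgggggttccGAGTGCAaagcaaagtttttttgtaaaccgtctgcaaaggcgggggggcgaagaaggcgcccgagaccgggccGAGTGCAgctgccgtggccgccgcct
The MT2A window held 8 core matches, 5 in the direction of the gene and 3 on the other strand, and the MT1X window held 4. The SLC30A1 window held 2 matches, both on the other strand, at 49 bases before and 24 bases after the RefSeq start. RefSeq starts differ from the GENCODE gene bounds given below. The SLC30A1 window lies wholly upstream of those bounds, and the MT2A and SLC39A10 windows lie wholly inside theirs. The MTF1 window and both SLC30A10 windows held 0, and of 2 overlapping SLC39A10 windows the upstream one held 0 and the other 1. Over all 35116 promoter windows, 29.55% held at least 1 match, 8.6% at least 2, 0.6% at least 4 and 0.16% at least 5. Neither the seed of miR-552-3p nor its complement was in a member window, where 4.11% of all windows held one of them.

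The 6 metallothionein genes lie within 76.0 kb of chromosome 16 on GRCh38 (GENCODE 29), from 56608199 to 56684196, in the order MT2A, MT1E, MT1M, MT1F, MT1G and MT1X, with MT1G alone on the minus strand. MTF1 (chr1:37809567-37859620), SLC30A1 (chr1:211571568-211578742) and SLC30A10 (chr1:219685427-219958647) are on the minus strand of chromosome 1, and SLC39A10 (chr2:195575977-195737702) is on the plus strand of chromosome 2. Reads of 50 bases do not always tell the metallothioneins apart. Of all stretches of 50 bases in their annotated transcripts, 3.27% of those of MT1F, 4.24% of MT2A, 7.1% of MT1E, 9.87% of MT1M, 16.47% of MT1G and 43.6% of MT1X also occur in a transcript of another gene. These stretches pool all annotated transcripts of a gene, 844 in MT1G, where the deposited values imply a gene length of 373 or 374 bases. Shares within the transcripts that were counted were not measured and may be larger. Most of the shared stretches of MT1X are in the overlapping transcript AC026461.1, and no source used here says if the counting reference held it. Other members share 47 of the 773 stretches of MT1X and 102 of the 844 of MT1G. Expected counts may divide shared reads by estimation, so MT1X and MT1G, with the largest shares, are to be read with care. SLC30A1, SLC30A10 and SLC39A10 share no such stretch, and MTF1 shares 0.64%.

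The libraries were of like depth, with 21608563 to 22102373 expected counts each. IPO8, the gene of importin8, stood at 34.0, 25.0, 11.4 and 7.97 CPM (counts scaled to the TMM-adjusted size of each library) in NC, miR-552-3p, si-importin8-NC and si-importin8-miR-552-3p, so it was lower by the siRNA and also by the mimic (log2 fold change -0.44 ± 0.08 SE, edgeR adjusted p = 0.000826). The 10 hepatocyte and HepG2 markers were all detected in every group. They summed to 59880 to 66020 CPM in NC, 47530 to 48480 with the mimic, 61600 to 63670 with the siRNA and 68800 to 72680 with both agents. With the mimic and control siRNA 7 of the 10 were lower and 1 higher, where 29.5% of all genes were lower and 28.9% higher. In the importin8 siRNA arm the mimic lowered 4 and raised 2 (16.7% and 15% of all genes). The siRNA raised 5 and lowered 4 with the control mimic (25.4% and 21.6% of all genes). With the mimic it raised 9 and lowered 0 (17.3% and 16.2% of all genes). The 14 fibroblast, endothelial and blood markers found in the table summed to 94.6 to 97.1 CPM in NC, 51.6 to 52.8 in miR-552-3p, 30.1 to 33.9 in si-importin8-NC and 33.6 to 35.7 in si-importin8-miR-552-3p. PECAM1 made up most of that sum in NC, at 70.5 CPM, and measured 27.5, 15.4 and 19.8 CPM in the other groups. Other genes of that list were higher outside NC: CD79A went from 0.289 CPM in NC to 12.8 and COL1A1 from 0.310 to 3.41 with the mimic, and CDH5 from 0.0669 to 2.87 with the siRNA, these 3 named after their values were seen. DCN and LUM had no count in 3 of the groups, as did COL1A2, COL3A1 and CD3E in the group with both agents, and the part of either marker list in any result was not tested. In bulk libraries fewer cells of a type and less RNA per cell cannot be told apart.

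Across the members, the mimic with control siRNA split the family. MT2A, MT1E, MTF1, SLC30A1 and SLC39A10 were higher, and MT1F, MT1G and SLC30A10 were lower, at an adjusted p under 0.05 in edgeR's quasi-likelihood test over 17715 genes. MT1M is left out of the counts here, since it passed the filter on low counts through NC alone. These 8 of the other 9 members stand beside 58.4% of all genes tested that changed in this comparison, 28.9% higher and 29.5% lower. The count was 6, 3 higher and 3 lower, with DESeq2 or with scaling by library totals, and 5 without miR-552-3p replicate 1. The median log2 fold change was 0.26 over the 9 members and -0.01 over all genes. With the importin8 siRNA present, the mimic changed 5 members, MT2A, MT1E and MT1X higher and MT1F and SLC30A10 lower, against 31.7% of all genes (15% higher, 16.7% lower). That count was 3 without si-importin8-NC replicate 1 or si-importin8-miR-552-3p replicate 1, and 2 without si-importin8-NC replicate 2, where MT2A, MT1E and MT1X no longer passed. With library totals it was 4, 1 higher and 3 lower, and over all genes the calls moved from 2649 higher and 2958 lower to 2107 higher and 3638 lower.

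The importin8 siRNA given with the control mimic changed 4 members, with SLC30A1 and MTF1 higher and MT1F and MT1X lower, against 47% of all genes (25.4% higher, 21.6% lower). Given with the mimic it changed 5, with MT1F, MT1G, SLC30A10 and SLC30A1 higher and SLC39A10 lower, against 33.5% of all genes (17.3% higher, 16.2% lower). The mimic effect itself differed between the siRNA arms in 6 members, against 31.3% of all genes (14.2% with a more positive effect under the importin8 siRNA, 17.1% with a more negative one). That difference was positive for MT1F, MT1G, MT1X and SLC30A10 and negative for SLC30A1 and SLC39A10. Both libraries of one group lay outside both of the other in 9, 8, 6 and 7 of the 9 members in the 4 comparisons between groups, where 78.5%, 68.0%, 73.5% and 67.8% of all genes did so. These comparisons share groups with each other and are not independent.

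**Figure D1:**
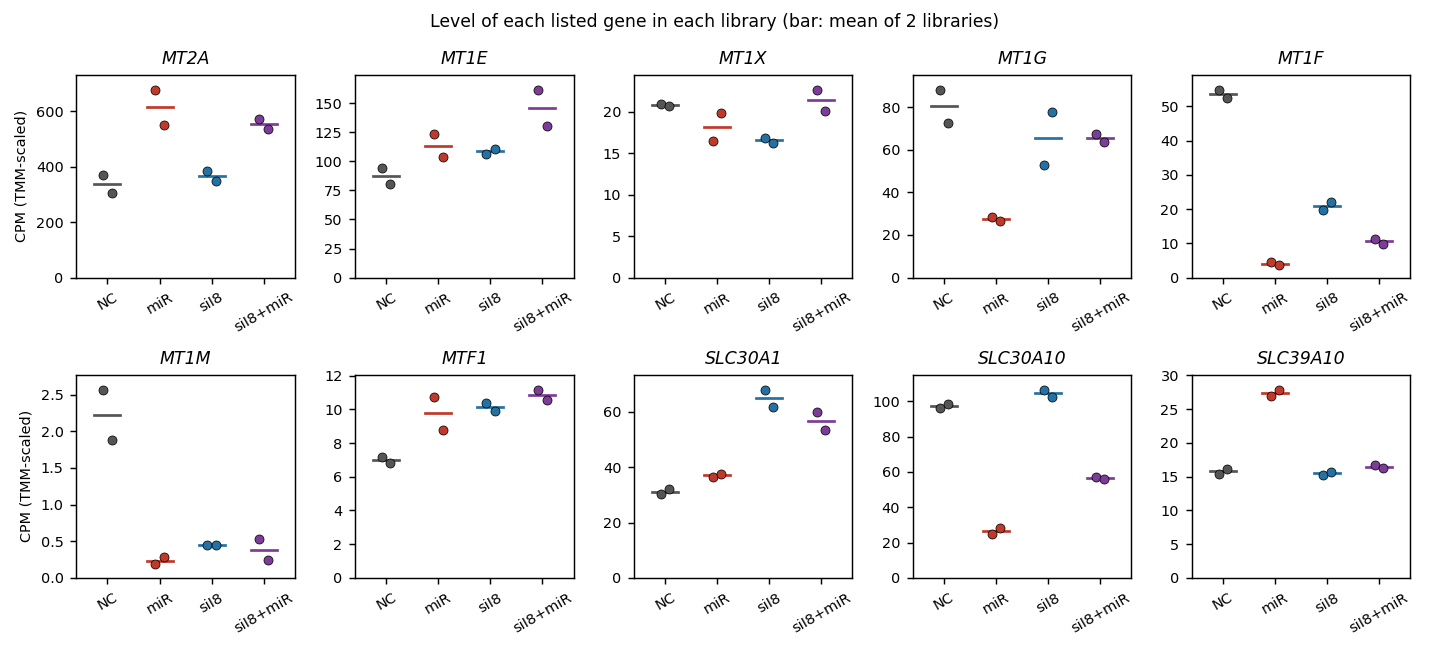
TMM-scaled CPM of each of the 10 genes in each library (points) with the mean of the 2 libraries of a group (bar), for NC, miR-552-3p (miR), si-importin8-NC (siI8) and si-importin8-miR-552-3p (siI8+miR); each axis starts at 0. MT1F is highest in NC at 54.9 and 52.3 CPM and lowest with the mimic at 4.39 and 3.63, while SLC39A10 stands apart only with the mimic, at 26.9 and 27.9 CPM.

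MT2A, the most abundant metallothionein of these cells, rose with the mimic in both siRNA arms. It stood at 371 and 305 CPM in the NC libraries, 679 and 551 in the miR-552-3p group, 385 and 350 in si-importin8-NC and 574 and 537 in si-importin8-miR-552-3p. Both mimic libraries of each arm lay above both of their controls. The rise was 1.82-fold with the control siRNA (log2 fold change 0.86 ± 0.12 SE, edgeR adjusted p = 0.000246) and 1.51-fold with the importin8 siRNA (0.60 ± 0.12, edgeR adjusted p = 0.0056). The second call was lost without si-importin8-NC replicate 2, where the value was 0.53 (edgeR adjusted p = 0.0501). No difference between the mimic effects was detected in MT2A (-0.27 ± 0.17, edgeR adjusted p = 0.288), nor an effect of the siRNA with the control mimic (0.12 ± 0.12, edgeR adjusted p = 0.458).

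MT1E, a type 1 metallothionein, was higher by a smaller amount with the mimic in both arms. It measured 94.2 and 80.4 CPM in NC, 124 and 103 in the miR-552-3p group, 107 and 111 in si-importin8-NC and 162 and 131 in si-importin8-miR-552-3p. The group with both agents was the highest and NC the lowest, with no overlap in any of the 4 comparisons. The mimic effect was 1.30-fold with the control siRNA (0.38 ± 0.13, edgeR adjusted p = 0.034) and 1.35-fold with the importin8 siRNA (0.43 ± 0.13, edgeR adjusted p = 0.0358). The first call did not hold with library totals, or when NC replicate 2, miR-552-3p replicate 1 or either si-importin8-NC library was left out (adjusted p 0.0512 to 0.207). The second was lost with library totals and without either si-importin8-NC library or si-importin8-miR-552-3p replicate 1 (adjusted p 0.0535 to 0.191).

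The only other metallothionein gene with enough counts to test was MT1A, which lies between MT1M and MT1F and is not a member. It rose with the mimic from 5.72 and 4.12 CPM in NC to 8.52 and 9.14, and from 4.04 and 4.99 to 8.75 and 8.16 CPM with the importin8 siRNA. The log2 fold changes were 0.84 ± 0.18 (edgeR adjusted p = 0.00264) and 0.90 ± 0.19 (edgeR adjusted p = 0.00445). Of the other 11 metallothionein genes and pseudogenes listed, 5 were in the table and MT1A alone was tested.

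MT1F fell further with the mimic and control siRNA than any other member. It measured 54.9 and 52.3 CPM in NC, 4.39 and 3.63 in the miR-552-3p group, 19.7 and 22.0 in si-importin8-NC and 11.3 and 9.87 in si-importin8-miR-552-3p. No 2 groups overlapped, and the group with both agents lay between the mimic alone and the siRNA alone. The mimic lowered MT1F 13.3-fold with the control siRNA, to 7.48% of the NC level (-3.74 ± 0.12, edgeR adjusted p = 5.29e-09), and 1.97-fold with the importin8 siRNA (-0.98 ± 0.11, edgeR adjusted p = 0.000131). Between the siRNA arms the mimic effect differed by 2.76 ± 0.16 (edgeR adjusted p = 2.68e-06). The siRNA moved MT1F in opposite directions: it was 2.57-fold lower with the control mimic (-1.36 ± 0.10, edgeR adjusted p = 3.34e-06) and 2.63-fold higher with the mimic (1.39 ± 0.13, edgeR adjusted p = 3.05e-05). All 5 of these calls held in every alternative run.

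MT1G, the neighbour of MT1F on the opposite strand, fell with the mimic only where importin8 was not targeted. Its libraries measured 88.3 and 72.5 CPM in NC, 28.3 and 26.6 in the miR-552-3p group, 52.8 and 77.9 in si-importin8-NC and 67.3 and 63.6 in si-importin8-miR-552-3p. The miR-552-3p libraries were below all 6 others, whereas the mimic libraries of the importin8 siRNA arm lay between their 2 controls. The fall was 2.93-fold with the control siRNA (-1.55 ± 0.20, edgeR adjusted p = 0.000586), the value with the importin8 siRNA was 0.00 ± 0.19 (edgeR adjusted p = 0.995), and the difference between the mimic effects was 1.55 ± 0.27 (edgeR adjusted p = 0.00621). The 2 si-importin8-NC libraries were far apart, and the siRNA value with the control mimic, -0.30 ± 0.19 (edgeR adjusted p = 0.24), became -0.61 (edgeR adjusted p = 0.00426) without replicate 2 of that group.

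MT1M was present at low counts and mainly in NC. It had 56.9 and 42.8 expected counts in NC, 4.44 and 5.7 in the miR-552-3p group, 9.59 and 10.4 in si-importin8-NC and 10.7 and 5.36 in si-importin8-miR-552-3p. Both NC libraries were above all others, and NC was the only group with both libraries over the filter of 0.461 CPM, so it had to differ from NC to be tested, and its values against NC are given as a description with no test. The fitted log2 values against NC were -3.23 ± 0.52 with the mimic and -2.29 ± 0.48 with the siRNA. Within the importin8 siRNA arm the groups overlapped, at -0.23 ± 0.53 (edgeR adjusted p = 0.792). The fitted difference between the mimic effects, which rests on NC too, was 3.00 ± 0.75, and 2.32 without si-importin8-miR-552-3p replicate 1.

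MT1X, whose promoter window with 4 core matches is shown above, varied least among the metallothioneins. Its libraries measured 20.9 and 20.7 CPM in NC, 16.4 and 19.8 in the miR-552-3p group, 16.9 and 16.3 in si-importin8-NC and 22.7 and 20.1 in si-importin8-miR-552-3p. The 2 single treatments lay below NC and the double treatment around it. The mimic effect was -0.20 ± 0.11 with the control siRNA (edgeR adjusted p = 0.141) and 0.37 ± 0.11 with the importin8 siRNA (edgeR adjusted p = 0.0271), with a difference of 0.57 ± 0.15 (edgeR adjusted p = 0.0182). The siRNA value with the control mimic was -0.33 ± 0.11 (edgeR adjusted p = 0.0301). Each of the 3 calls was lost in 4 or 5 alternatives, among them DESeq2 (adjusted p = 0.086 to 0.135) and the fits without either si-importin8-NC library for the 2 called contrasts between groups (edgeR adjusted p = 0.0792 and 0.13 for the mimic, 0.082 and 0.126 for the siRNA). The difference was lost without miR-552-3p replicate 1, si-importin8-NC replicate 2 or si-importin8-miR-552-3p replicate 1 (edgeR adjusted p = 0.0631, 0.0588 and 0.0791). The mimic call was also lost without si-importin8-miR-552-3p replicate 1 (0.28, edgeR adjusted p = 0.187) and the siRNA call without NC replicate 1 or 2 (edgeR adjusted p = 0.0799 and 0.0712).

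**Figure D2:**
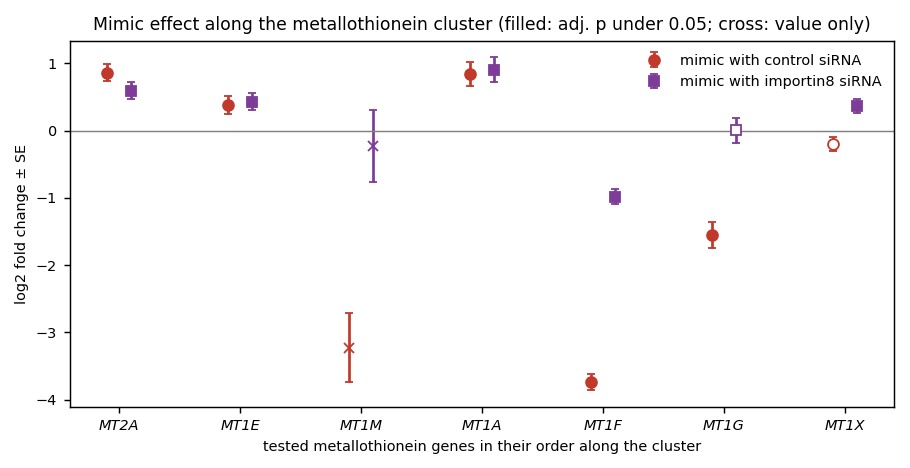
Log2 fold change with its SE of the 7 tested metallothionein genes, in their order along the chromosome 16 cluster, for the mimic with control siRNA (circles) and with importin8 siRNA (squares); filled symbols have an adjusted p under 0.05, and crosses mark MT1M, shown as a value only. MT1A, which rose with control siRNA, lies before MT1F and MT1G, which fell, and the values of MT1F and MT1G were nearer to 0 in the importin8 siRNA arm.

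With the mimic and control siRNA MT2A rose while MT1F and MT1G fell, so the mixture of metallothionein transcripts changed. Summed over the 6 genes, FPKM (a level scaled to transcript length and library size) was 1428 ± 124 (SD, n = 2) in NC, 1796 ± 251 in miR-552-3p, 1386 ± 7.78 in si-importin8-NC and 1812 ± 99.0 in si-importin8-miR-552-3p. Without MT2A the summed CPM was 244 ± 23.4 in NC, 163 ± 13.8 in miR-552-3p, 212 ± 22.1 in si-importin8-NC and 244 ± 27.6 in si-importin8-miR-552-3p. MT2A made up 57.7% ± 0.99 of the summed FPKM in NC and 79.8% ± 1.13 with the mimic, against 63.8% ± 4.24 and 70.2% ± 1.27 in the importin8 siRNA arm. MT1F went from 9.36% ± 0.81 of the sum in NC to 0.53% in miR-552-3p, and from 3.6% ± 0.25 to 1.33% in the importin8 siRNA arm. MT1G went from 15.5% to 4.05% with the control siRNA and from 12.8% to 9.35% with the importin8 siRNA. The summed FPKM of NC and miR-552-3p differed by less than their SDs together, though their libraries, 1516 and 1341 against 1973 and 1618, did not overlap. These sums and shares are descriptions with no test.

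**Figure D3:**
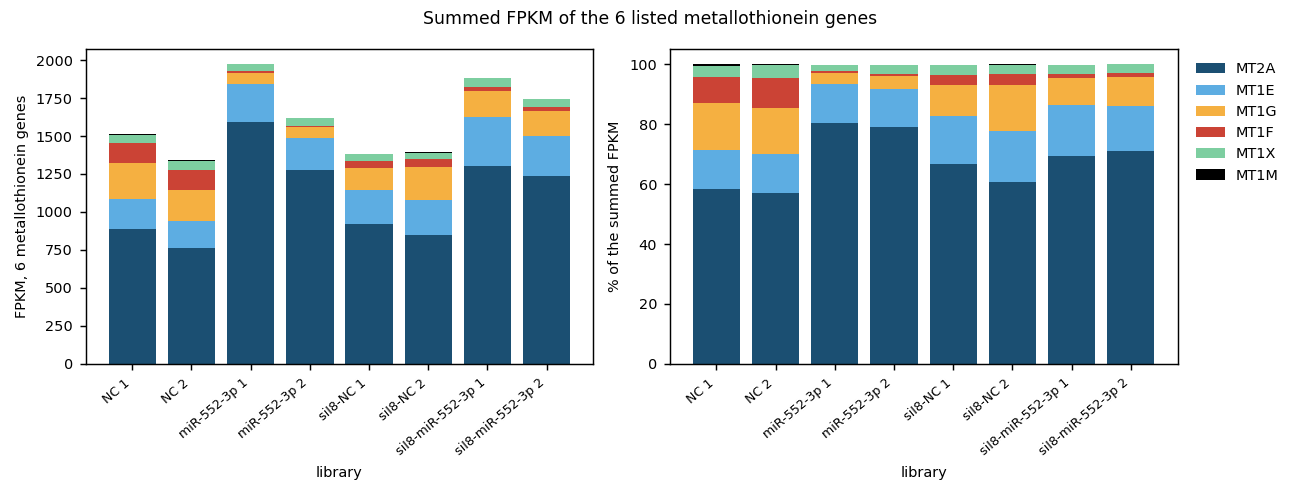
Stacked FPKM of the 6 metallothionein members in each of the 8 libraries (left) and the same as a percentage of their sum (right). MT2A takes 57.0 to 58.4% of the sum in NC and 79.0 to 80.6% in miR-552-3p, where the bands of MT1G and MT1F are thinnest.

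MTF1, the zinc sensor, was higher with the mimic alone and with the siRNA alone than in NC. It measured 7.16 and 6.84 CPM in NC, 10.8 and 8.76 in the miR-552-3p group, 10.4 and 9.89 in si-importin8-NC and 11.2 and 10.5 in si-importin8-miR-552-3p. NC was below all other libraries, and the 3 treated groups lay close together. The mimic with control siRNA raised MTF1 1.40-fold (0.48 ± 0.13, edgeR adjusted p = 0.0103) and the siRNA with control mimic 1.45-fold (0.54 ± 0.13, edgeR adjusted p = 0.00734). The mimic call was lost with DESeq2 (adjusted p = 0.0925) and without miR-552-3p replicate 1 (0.32, edgeR adjusted p = 0.097), and the siRNA call with DESeq2 (adjusted p = 0.0766). With the importin8 siRNA the mimic value was 0.10 ± 0.13 (edgeR adjusted p = 0.626), and the difference between the mimic effects, -0.39 ± 0.19, did not pass (edgeR adjusted p = 0.149). On the FPKM scale the ratios to NC were 1.78 with the mimic and 1.83 with the siRNA. Put otherwise, the gene length that count and FPKM together imply was longer in NC, and the cause was not tested.

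SLC30A1, the zinc exporter of the plasma membrane, followed the importin8 siRNA more than the mimic. It measured 30.2 and 32.0 CPM in NC, 36.6 and 37.7 in the miR-552-3p group, 68.0 and 61.7 in si-importin8-NC and 59.8 and 53.6 in si-importin8-miR-552-3p. All 4 libraries with the importin8 siRNA were above all 4 without it. The siRNA raised SLC30A1 2.08-fold with the control mimic (1.06 ± 0.08, edgeR adjusted p = 4.08e-06) and 1.53-fold with the mimic (0.61 ± 0.08, edgeR adjusted p = 0.000273), in every alternative run. The mimic raised it 1.19-fold with the control siRNA (0.26 ± 0.08, edgeR adjusted p = 0.0213). That call did not hold with DESeq2 or library totals (adjusted p = 0.0821 and 0.0758), nor when NC replicate 1 or either miR-552-3p library was left out (edgeR adjusted p = 0.089, 0.053 and 0.0965). With the importin8 siRNA the mimic value was -0.19 ± 0.08 (edgeR adjusted p = 0.0855), which passed with library totals (-0.27, adjusted p = 0.0269). The difference between the mimic effects, -0.45 ± 0.11 (edgeR adjusted p = 0.0127), was lost without si-importin8-NC replicate 1 (-0.38, edgeR adjusted p = 0.0577) or si-importin8-miR-552-3p replicate 2 (-0.37, edgeR adjusted p = 0.058).

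SLC30A10, the manganese exporter, fell with the mimic in both arms, and by less where importin8 was targeted. Its libraries measured 95.9 and 98.2 CPM in NC, 24.8 and 28.0 in the miR-552-3p group, 106 and 102 in si-importin8-NC and 57.0 and 56.2 in si-importin8-miR-552-3p. The mimic libraries of each arm were below both controls of either arm, and those with the control siRNA were the lowest. The fall was 3.68-fold with the control siRNA (-1.88 ± 0.07, edgeR adjusted p = 1.43e-08) and 1.84-fold with the importin8 siRNA (-0.88 ± 0.07, edgeR adjusted p = 1.38e-05). Between the arms the mimic effect differed by 1.00 ± 0.10 (edgeR adjusted p = 4.92e-05), and the siRNA raised the gene 2.14-fold among the mimic libraries (1.10 ± 0.07, edgeR adjusted p = 3.89e-06). With the control mimic the siRNA value was 0.11 ± 0.07 (edgeR adjusted p = 0.219) on counts. The deposited FPKM were 20.2 ± 1.09 in NC and 29.1 ± 1.73 in si-importin8-NC, a ratio of 1.44 against 1.08 for CPM. Here too the gene length that count and FPKM together imply was longer in NC, and the cause was not tested. The 4 called changes held in every alternative run.

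SLC39A10, a zinc importer of the plasma membrane, rose with the mimic alone. It measured 15.4 and 16.1 CPM in NC, 26.9 and 27.9 in the miR-552-3p group, 15.3 and 15.7 in si-importin8-NC and 16.7 and 16.3 in si-importin8-miR-552-3p. The 2 miR-552-3p libraries stood above all 6 others, which spanned 15.3 to 16.7 CPM. The rise was 1.74-fold with the control siRNA (0.80 ± 0.08, edgeR adjusted p = 1.55e-05) and the value with the importin8 siRNA was 0.09 ± 0.08 (edgeR adjusted p = 0.47). The difference between the mimic effects was -0.71 ± 0.12 (edgeR adjusted p = 0.00129), and the siRNA lowered SLC39A10 1.66-fold among the mimic libraries (-0.73 ± 0.08, edgeR adjusted p = 9.46e-05). These 3 calls held in every alternative run.

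**Figure D4:**
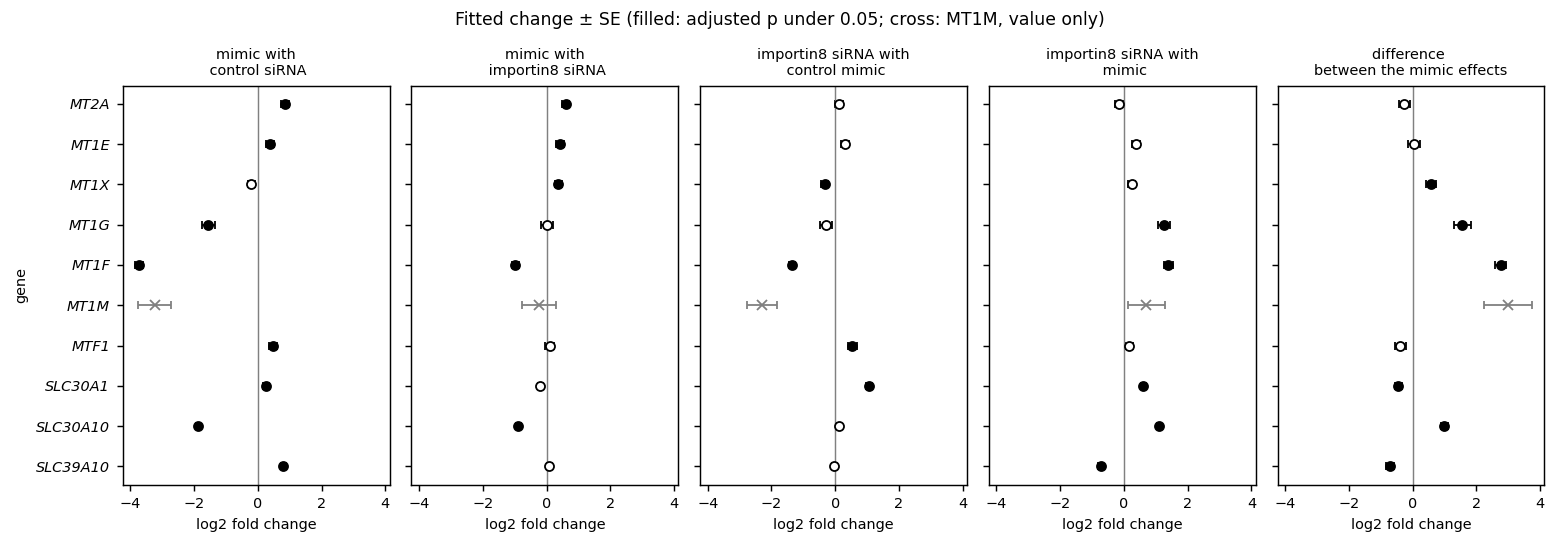
Log2 fold change with its SE for each member in the 4 comparisons between groups and in the difference between the mimic effects (importin8 siRNA arm minus control siRNA arm); filled points have an adjusted p under 0.05, and crosses mark MT1M, shown as a value only. With control siRNA the values run from -3.74 (MT1F) to 0.86 (MT2A), and in the importin8 siRNA arm from -0.98 (MT1F) to 0.60 (MT2A).

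Per transcript length, MT2A was the highest member in every group, at 824 to 1434 FPKM as group means. In NC it was followed by MT1G at 221 ± 23.1 FPKM, MT1E at 186 ± 15.9, MT1F at 133 ± 0.12 and MT1X at 57.2 ± 1.43, then SLC30A10 at 20.2 ± 1.09, SLC30A1 at 15.2 ± 1.03, MT1M at 5.57 ± 1.03, SLC39A10 at 3.05 ± 0.23 and MTF1 at 0.96 ± 0.03 (SD, n = 2 each). MT1G and MT1E were the only neighbours in that order that differed by less than the sum of their SDs, and their libraries did not overlap. With the mimic the order changed to MT2A, MT1E at 231 ± 31.2 FPKM, MT1G at 72.3 ± 3.84, MT1X at 47.2 ± 5.74, SLC30A1 at 17.2 ± 0.29 and MT1F at 9.56 ± 1.4. SLC30A10, SLC39A10, MTF1 and MT1M then followed at 7.03 ± 0.41, 4.98 ± 0.06, 1.71 ± 0.18 and 0.57 ± 0.11 FPKM. In si-importin8-NC, SLC30A1 (31.0 ± 1.9 FPKM) and SLC30A10 (29.1 ± 1.73) did not differ beyond their spread.

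Over the 8 libraries the members fell into a few patterns, given here as Pearson correlations of log2 CPM and as descriptions, since the libraries share their groups. MT1F went with SLC30A10 (0.90) and MT1G (0.87), and against MT2A (-0.89). SLC39A10 went against MT1G (-0.94) and SLC30A10 (-0.93). Of 11114 other genes with a mean of at least 100 counts, those most like MT2A were SLC41A1, a magnesium transporter gene, and CIB1 (both 0.990), then GLRX, S100A14 and JMJD6 (all 0.986). SLC41A1 for example had 7.64, 13.2, 8.22 and 11.4 CPM in NC, miR-552-3p, si-importin8-NC and si-importin8-miR-552-3p. Genes most like SLC30A1 included KDELC2 and CENPH (both 0.996), then PER2 and BAIAP2L2 (both 0.992). PER2, a circadian clock gene, had 18.1, 20.8, 38.1 and 31.2 CPM in the same order.

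Most other zinc importers fell where SLC39A10 rose. Of 11 other SLC39 genes tested, 9 were lower and 1 higher with the mimic and control siRNA, with a median log2 fold change of -0.77, where 29.5% of all genes were lower. SLC39A11 fell from 98.5 and 92.5 CPM in NC to 13.0 and 12.4 (-2.91 ± 0.08, edgeR adjusted p = 1.92e-09). SLC39A14, which carries zinc, iron and manganese into hepatocytes and was the most abundant by count, fell from 1471 and 1396 CPM to 532 and 598 (-1.34 ± 0.08, edgeR adjusted p = 3.49e-07). SLC39A5 and SLC39A9 fell by 1.25 and 1.19 on the log2 scale (edgeR adjusted p = 1.95e-07 and 1.74e-07). The gene that rose was SLC39A6, a close relative and partner of SLC39A10, named here after its values were seen: its libraries went from 54.0 and 48.3 CPM to 68.5 and 68.5 (0.42 ± 0.08, edgeR adjusted p = 0.00158).

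In the importin8 siRNA arm 4 of those 11 genes were lower with the mimic and 0 higher, where 16.7% of all genes were lower and 15% higher, and the value of SLC39A14 was -0.03 ± 0.08 (edgeR adjusted p = 0.834). The difference between the mimic effects was positive in 6 of 11 and negative in 0 (14.2% and 17.1% of all genes), with 2.41 ± 0.11 for SLC39A11 (edgeR adjusted p = 6.88e-07) and 1.32 ± 0.11 for SLC39A14 (edgeR adjusted p = 2.25e-05). The siRNA with the control mimic lowered 5 and raised 1 (21.6% and 25.4% of all genes), SLC39A11 by 3.93-fold and SLC39A14 by 2.02-fold, and with the mimic it raised 5 and lowered 0 (17.3% and 16.2% of all genes). Among the 6 other SLC30 genes tested, 1 rose and 1 fell with the mimic in each arm, where 58.4% and 31.7% of all genes changed. SLC30A7, which loads zinc into the Golgi, measured 34.6 and 36.4 CPM in NC and 53.6 and 53.9 with the mimic (0.60 ± 0.06, edgeR adjusted p = 2.19e-05), and 24.8 and 25.2 in si-importin8-NC and 38.5 and 38.7 in si-importin8-miR-552-3p (0.63 ± 0.07, edgeR adjusted p = 9.82e-05). SLC30A6 went from 39.9 and 40.5 CPM to 28.0 and 26.1 with the mimic and control siRNA (-0.57 ± 0.07, edgeR adjusted p = 7.15e-05).

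**Figure D5:**
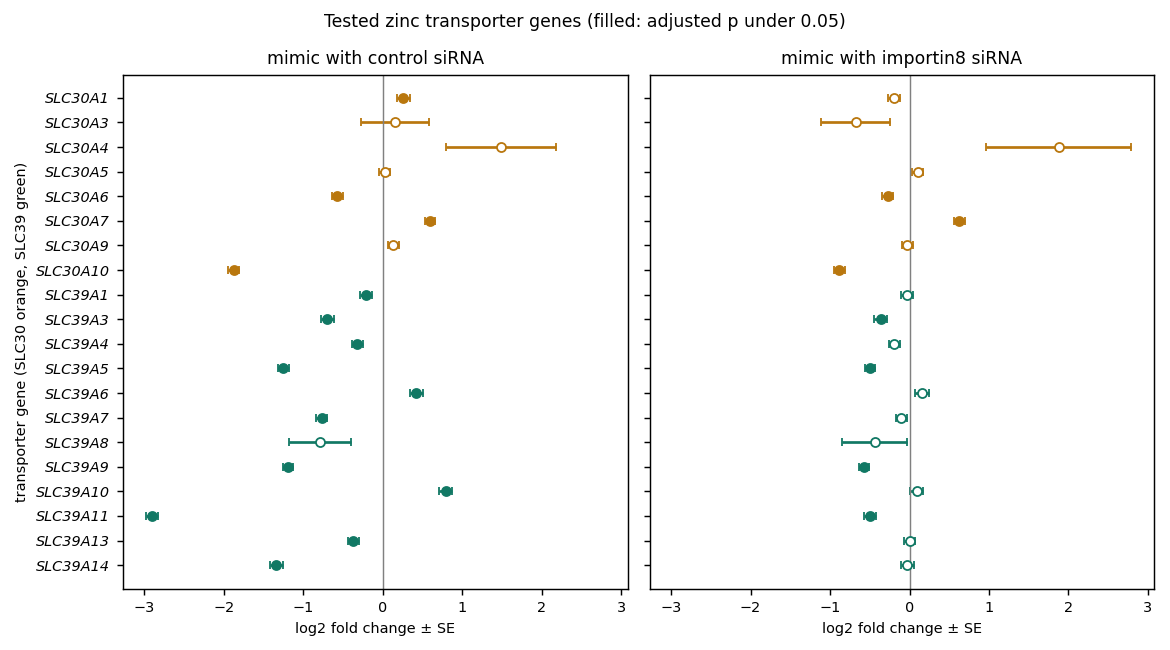
Log2 fold change with its SE of the 20 tested SLC30 (orange) and SLC39 (green) genes for the mimic with control siRNA (left) and with importin8 siRNA (right); filled points have an adjusted p under 0.05. On the left most SLC39 genes lie below 0, down to -2.91 for SLC39A11, while SLC39A6 and SLC39A10 lie above it. On the right the SLC39 values are closer to 0. The SLC30 values are not all so: SLC30A4, at low counts and not called, lies at 1.49 on the left and 1.88 on the right.

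Genes that respond to metals, heat and oxidants together with metallothioneins mostly rose with the mimic. Of 12 listed, 11 were higher and 1 lower with the mimic and control siRNA, with a median log2 fold change of 2.22, and 10 were higher and 2 lower in the importin8 siRNA arm, with a median of 0.82. Over all genes 28.9% were higher and 29.5% lower with control siRNA, and 15% higher and 16.7% lower with importin8 siRNA. This list, like the other gene lists here, was chosen with earlier results of these data known, so such counts are descriptions. TXNRD1, thioredoxin reductase, went from 90.8 and 85.9 CPM in NC to 653 and 636 (2.87), and HSPA1A and HSPA1B, near-identical heat shock genes whose reads cannot be told apart with certainty, had values of 4.09 and 4.19. HMOX1, heme oxygenase, measured 18.7 and 16.8 CPM in NC, 79.1 and 57.4 in the miR-552-3p group, 29.9 and 26.7 in si-importin8-NC and 19.4 and 20.8 in si-importin8-miR-552-3p. It rose with control siRNA (1.94, edgeR adjusted p = 8.47e-06) and fell with importin8 siRNA (-0.49, edgeR adjusted p = 0.0413). In 11 of 12 genes the mimic effect was more negative with importin8 siRNA, and in 0 it was more positive, by a called difference (17.1% and 14.2% of all genes). The siRNA with the control mimic itself raised 7 of the 12 and lowered 1 (25.4% and 21.6% of all genes). Given with the mimic it raised 0 and lowered 10 (17.3% and 16.2% of all genes). The mimic took DNAJB1 from a mean of 123 to 1003 CPM with control siRNA. With importin8 siRNA it went from 520 to 909 CPM, so its smaller mimic effect started from a higher level. The gene that the mimic lowered with control siRNA was NQO1, named after its values were seen (-0.36, edgeR adjusted p = 0.0033).

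The copper genes and the glucocorticoid-inducible genes were called with the mimic and control siRNA about as often as all genes (58.4%) and in both directions. Of 12 copper genes 2 were higher and 6 lower, with CP, ceruloplasmin, at 1.33 (edgeR adjusted p = 7.21e-05) and CCS, the copper chaperone of superoxide dismutase, at -0.73 (edgeR adjusted p = 1.82e-05). With importin8 siRNA 1 was higher and 4 lower, beside 31.7% of all genes called in that comparison. Of 9 glucocorticoid-inducible genes 3 were higher and 3 lower with control siRNA and 5 higher and 2 lower with importin8 siRNA, where 15% of all genes were higher and 16.7% lower. DUSP1 rose in both arms (2.23 and 1.04, edgeR adjusted p = 4.35e-05 and 0.00428), while TSC22D3 fell with control siRNA (-1.81, edgeR adjusted p = 2.57e-05) and rose with importin8 siRNA (1.88, edgeR adjusted p = 0.000244).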

How the data were processed

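Poly(A) RNA of 8 HepG2 libraries was sequenced as single-end reads of 50 bases, per the labels' protocols. The table deposited by the authors pairs an expected count with an expression value in every library, and the second was read here as FPKM, since the file headers call it only expression. HISAT2 2.0.4, Bowtie2 2.2.5, RSEM 1.2.8 and GRCh38.p12 are named in the submitters' processing notes, with no role stated, and no source used here says if strand was used. Libraries were grouped by sample title, and both replicates of every group counted as samples, since their chi-square was 4.301 to 9.802 per degree of freedom.

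Expected counts were rounded, filtered with filterByExpr (minimum count 10), scaled by TMM and fitted in edgeR 4.0.16 (R 4.3.3, robust quasi-likelihood F test) as 1 model of 4 group means. Calls were made at a Benjamini-Hochberg adjusted p under 0.05 over 17715 genes. The approximate SE divides the size of the log2 fold change by the root of F. On simulated counts for the mimic with control siRNA over 17715 genes, 51.3% of 113 genes changed by 1 on the log2 scale and 70.1% of 87 changed by 2 were called, and 9.16% of calls were false. No other gene was changed in the simulation, whereas 58.4% of genes were called in the data, so these rates do not carry over to the calls here. Alternatives were DESeq2 1.42.0, limma 3.58.1 (voom), other scalings and filters, the 4 libraries compared alone, a replicate block and leaving out each library.

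The members and gene lists were chosen with earlier results of these data known. The text names IPO8, the members, up to 4 called genes per list and comparison (largest change, mean of at least 100 counts, no overlap), and the 5 genes most correlated with MT2A and with SLC30A1, of which 1 is not reported here. Positions and 3′ UTRs are from GENCODE 29, and the miRNA and promoters from RefSeq.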

Additional observations from a re-analysis of the deposited data

Results flagged for a closer look

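The mimic effect differed between the importin8 siRNA and control siRNA arms in 6 members, by a test of the difference itself in edgeR (adjusted p under 0.05, beside 31.3% of all genes tested). On the log2 scale, as the effect with importin8 siRNA minus that with control siRNA, the difference was 2.76 for MT1F, 1.55 for MT1G, 1.00 for SLC30A10, 0.57 for MT1X, -0.45 for SLC30A1 and -0.71 for SLC39A10. MT1M also passed that threshold, at 3.00, but it entered the test through its NC libraries alone, so this value is a description only; with DESeq2 it did not pass (adjusted p = 0.0564). The call of MT1X was also lost with DESeq2 (adjusted p = 0.086). For MT1F, MT1G, SLC30A10 and SLC39A10 the mimic effect was nearer to 0 with importin8 siRNA, and for SLC30A1 and MT1X the 2 effects had opposite signs. Not called among these were SLC30A1 with importin8 siRNA (-0.19, edgeR adjusted p = 0.0855) and MT1X with control siRNA (-0.20, edgeR adjusted p = 0.141). For these 2 genes a reversal is therefore not established. IPO8 itself was lower with the mimic in both arms, to 73.7% of its NC level with control siRNA, and the part of that in these differences was not tested.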

How the results depend on the processing

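Of 790 member values under the alternatives, 730 kept their direction and their side of the threshold, 36 lost a call, 14 gained one and 10 changed sign, and 27 of 50 values kept both throughout. These counts include MT1M, which entered the test through NC alone, so its kept calls against NC are no measure of stability. With MT1M left out and 2 libraries kept per group, the members called ranged from 6 to 8 for the mimic with control siRNA and 4 to 5 with importin8 siRNA. They ranged from 3 to 5 for the siRNA with control mimic, 5 to 6 for the siRNA with mimic and 5 to 6 for the difference. In the main fit 58.4%, 31.7%, 47%, 33.5% and 31.3% of all genes were called, in the same order. For the mimic in either siRNA arm, more calls were lost when 1 library was left out, among them without miR-552-3p replicate 1 (control siRNA) and without si-importin8-NC replicate 2 (importin8 siRNA). All genes called for the mimic with importin8 siRNA numbered 5607, 3590 without si-importin8-NC replicate 2 and 3582 without si-importin8-miR-552-3p replicate 1.

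Values that changed sign were all uncalled. For the mimic with importin8 siRNA, MT1G became -0.071 with library totals and -0.25 to 0.31 when 1 library was left out (below 0 without si-importin8-NC replicate 1 or si-importin8-miR-552-3p replicate 1), and MT1M -0.90 to 0.23 (above 0 without si-importin8-miR-552-3p replicate 2). For the siRNA with control mimic, MT2A ranged from -0.014 to 0.27 and SLC39A10 from -0.054 to 0.0054, both reversed without NC replicate 2. For the siRNA with mimic, MT2A ranged from -0.29 to 0.011, above 0 without miR-552-3p replicate 1. The difference for MT1E ranged from -0.11 to 0.19, below 0 without NC replicate 1, miR-552-3p replicate 2 or si-importin8-miR-552-3p replicate 1. The cause was not tested. MT1E gained a siRNA call in 5 alternatives with each mimic condition (edgeR, DESeq2 or voom adjusted p = 0.0107 to 0.0484), and MT1X gained a call without miR-552-3p replicate 2 in 2 comparisons (edgeR adjusted p = 0.0372 and 0.0438).

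Libraries of the same number did not deviate together (correlations -0.00 to 0.09 over 17715 genes), so the numbers were not taken as pairs. With the replicate block 8, 5, 5, 6 and 6 of the 9 members other than MT1M were called, in the order of the comparisons above. MT1E was added in both siRNA comparisons (0.32, edgeR adjusted p = 0.0139, and 0.36, edgeR adjusted p = 0.0107). All genes called with the block were 10424, 5847, 8496, 6121 and 5786. The fit on 4 libraries was not run for the difference, which needs all 8. Low counts limit MT1M, where 3 counts are 0.132 to 0.144 CPM.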

Other observations

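The gene length that the deposited expected count and FPKM imply (count per FPKM and library total) was steady for 8 members but not for SLC30A10 and MTF1. For SLC30A10 it was 4966 and 4949 bases in the NC libraries, 3645 and 3744 in the miR-552-3p group, 3544 and 3749 in si-importin8-NC and 3417 and 3436 in si-importin8-miR-552-3p. For MTF1 it was 7336 and 7660 bases in NC, 5814 and 5433 in the miR-552-3p group, 6137 and 5617 in si-importin8-NC and 5560 and 5064 in si-importin8-miR-552-3p. In both genes the NC libraries were above all 6 others, at group ratios to NC of 0.69 to 0.75 for SLC30A10 and 0.71 to 0.78 for MTF1. Over the 10587 tested genes at 0.9 FPKM or more and 50 counts or more in every library, the median ratio was 0.995 to 0.997, and 6.19 to 8.66% of genes departed by more than 1.2-fold. On the FPKM scale MTF1 stood at 1.78, 1.83 and 2.06 times its NC mean in miR-552-3p, si-importin8-NC and si-importin8-miR-552-3p, against 1.40, 1.45 and 1.55 on the CPM scale, and SLC30A10 at 0.35, 1.44 and 0.79 against 0.27, 1.08 and 0.58. Which transcripts lie behind these lengths cannot be read from values per gene.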
